A study of Homo sapiens with 6 samples.

Results

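The HOX genes and the HOX lncRNAs HOTAIR, HOTAIRM1 and HOTTIP were examined in paclitaxel (PTX)-resistant MDA-MB-231 cells, a mesenchymal triple-negative human breast cancer line. Members were the 39 protein-coding genes of the HOXA, HOXB, HOXC and HOXD clusters, found by symbol in the GENCODE annotation on GRCh37, and these 3 lncRNAs, which makes 42 of the 61015 genes with a transcript on file. LncRNA sequencing had been carried out on cells sorted by aldehyde dehydrogenase (ALDH) activity, with 3 libraries titled BCSC (breast cancer stem cells, ALDH+) and 3 titled non-BCSC (ALDH-). All 6 libraries came from the PTX-resistant derivative, so both groups shared the resistance, and dead cells had been gated out with propidium iodide. The groups follow the sample titles, because the cell type label named breast cancer stem cells for all 6. No source used here said whether the 3 libraries of a group came from separate cultures or sorts, so the p-values measure the spread between these libraries, which may be technical. The comparison asks which HOX genes differ in RNA level between ALDH+ and ALDH- cells of a chemoresistant line.

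HOX genes encode homeodomain transcription factors that give cells their position along the head-to-tail axis of the embryo. They lie in 4 clusters, and their order along the chromosome matches the order in which they are switched on, from paralog group 1 (anterior) to group 13 (posterior). HOX proteins bind DNA together with TALE homeodomain cofactors of the PBX, MEIS and PKNOX families, Trithorax complexes keep HOX loci active, and Polycomb complexes keep them silent. HOTAIR is transcribed from the HOXC cluster between HOXC11 and HOXC12, HOTAIRM1 from the anterior end of the HOXA cluster, and HOTTIP from its posterior end.

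Promoter sequence was taken from RefSeq (GRCh38.p14) as windows from 250 bases before to 50 bases after an annotated start, and 21 of the 42 members matched by symbol. The members without an entry included HOXC10, HOXB9, HOXC13, HOXC6 and HOXB3. The 5 windows below lie at or near an annotated start of members whose transcripts or levels are described further on. Each is written along its gene's strand with every CpG in capitals. HOXD8 and HOXD1, both of the HOXD cluster, had similar numbers of CpGs (34 and 36, against a median of 14 over 34796 distinct windows). HOXD8 was among the most abundant members and HOXD1 had 0 counts in all 6 libraries. However, the transcript HOXD8-203, with 60.8% of HOXD8 counts, starts downstream of the HOXD8 window. The HOXC4 window, which RefSeq also lists for HOXC5, held 15 CpGs. The transcript HOXC4-202, with 80.4% of HOXC4 counts, starts outside this window. The HOXA13 and HOTTIP windows held 44 and 41 CpGs, lie on opposite strands and share 171 bases, and their starts are 330 bases apart.
HOXD8, chr2:176129455-176129754, plus strand: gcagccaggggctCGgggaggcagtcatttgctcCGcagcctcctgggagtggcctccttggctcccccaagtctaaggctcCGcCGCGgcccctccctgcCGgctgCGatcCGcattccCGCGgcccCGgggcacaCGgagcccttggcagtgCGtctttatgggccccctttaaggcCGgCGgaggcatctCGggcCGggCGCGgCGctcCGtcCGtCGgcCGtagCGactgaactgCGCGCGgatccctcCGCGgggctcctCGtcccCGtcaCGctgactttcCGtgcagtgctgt
HOXD1, chr2:176188418-176188717, plus strand: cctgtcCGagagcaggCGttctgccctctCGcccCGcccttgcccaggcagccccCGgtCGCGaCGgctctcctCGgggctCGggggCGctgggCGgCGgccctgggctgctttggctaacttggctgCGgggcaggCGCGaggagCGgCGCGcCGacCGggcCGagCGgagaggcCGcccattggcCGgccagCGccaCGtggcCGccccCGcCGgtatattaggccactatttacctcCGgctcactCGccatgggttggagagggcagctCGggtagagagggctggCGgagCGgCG
HOXC4, chr12:54016638-54016937, plus strand: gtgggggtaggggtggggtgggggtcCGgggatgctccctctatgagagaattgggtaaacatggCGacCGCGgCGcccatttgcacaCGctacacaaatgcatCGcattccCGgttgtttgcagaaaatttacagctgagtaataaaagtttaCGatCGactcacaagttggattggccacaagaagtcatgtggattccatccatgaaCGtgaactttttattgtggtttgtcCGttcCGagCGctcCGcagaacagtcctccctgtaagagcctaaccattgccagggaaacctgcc
HOXA13, chr7:27200042-27200341, minus strand: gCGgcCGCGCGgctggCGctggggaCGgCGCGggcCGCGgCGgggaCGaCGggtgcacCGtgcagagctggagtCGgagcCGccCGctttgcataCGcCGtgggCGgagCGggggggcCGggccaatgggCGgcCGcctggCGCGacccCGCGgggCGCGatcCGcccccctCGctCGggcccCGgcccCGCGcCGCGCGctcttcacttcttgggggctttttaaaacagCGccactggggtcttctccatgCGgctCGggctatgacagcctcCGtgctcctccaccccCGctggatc
HOTTIP, chr7:27200171-27200470, plus strand: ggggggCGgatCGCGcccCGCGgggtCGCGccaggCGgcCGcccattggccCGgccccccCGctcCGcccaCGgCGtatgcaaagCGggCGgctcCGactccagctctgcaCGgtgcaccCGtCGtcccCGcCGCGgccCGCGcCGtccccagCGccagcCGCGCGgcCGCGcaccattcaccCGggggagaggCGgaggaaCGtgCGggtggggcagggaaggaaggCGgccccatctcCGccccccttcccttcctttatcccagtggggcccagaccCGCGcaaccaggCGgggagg

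Among the members with a window, the TATA box letters TATAAA occurred on either strand for HOXD13, HOXA3, HOXA9 and HOXA10. They held in 11.6% of all windows of this length, a share per window, while some members have several windows. The first match lay 29 bases before the start for HOXD13 and HOXA3, and 150 or 222 bases before it for HOXA9 and HOXA10. For HOXA3 it was only in the window at HOXA3-206, a transcript with 0 counts. The letters TGATNNAT, a form of the site bound jointly by HOX and PBX proteins in which N is any base, occurred for HOXB1, HOXD11 and HOXA2, and in 7.42% of all windows. These are matches of letters in RefSeq sequence and no measurement of binding.

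The libraries held 15925943 to 21215352 counts in BCSC and 9898588 to 12263667 in non-BCSC, so the mean total was 1.61 times larger in BCSC. A gene listed at 0 counts could still hold up to 3 at this depth, or 0.148 to 0.288 CPM (counts scaled by the library total after TMM adjustment) from the deepest library to the shallowest, and such limits cover counting error only. The line markers VIM, CD44, FOSL1 and AXL were present, while KRT18 was low, at 1.85 ± 0.802 CPM in BCSC and 10.99 ± 1.28 in non-BCSC (SD, n = 3 in each). The 4 leukocyte markers summed to 0.783 to 1.45 CPM in BCSC and 14.2 to 23.4 in non-BCSC, mostly from PTPRC. The summed levels ran from 18.5 to 33.8 against 46.8 to 88.2 CPM for the 2 endothelial markers on file, from 81.8 to 96.3 against 135 to 160 CPM for the 4 fibroblast markers, from 15.2 to 21.3 against 34.7 to 50.2 CPM for the 3 haematopoietic progenitor markers and from 21.3 to 25.0 against 22.5 to 39.8 CPM for the 5 luminal markers, of which KRT19 was at 0 in BCSC. The 4 genes known to be low in this line (ESR1, PGR, EPCAM and CDH1) summed to 8.32 to 9.56 CPM in BCSC and 22.1 to 46.2 in non-BCSC. The 391 olfactory receptor genes, which serve as a gauge of stray counts in a cell line that has no use for them, averaged 0.114 CPM per kb in BCSC and 1.01 in non-BCSC. The part of these differences in the results on HOX genes was not tested.

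HOX expression was patchy in both groups, and every member that passed the test was higher in BCSC. HOXC10, HOXB9, HOXC13 and HOXC6 were called higher, and 0 members were called lower (called means a Benjamini-Hochberg adjusted p under 0.05 in edgeR's quasi-likelihood test over 20442 genes and a log2 fold change beyond 1). HOXB3 also had an adjusted p under 0.05 but lay below the fold minimum. Of the 42 members, 3 (HOXB1, HOXB4 and HOXD1) had 0 counts in all 6 libraries, 24 had enough counts to be tested, and 18, these 3 included, did not. The highest count of any untested member in any library was 26, for HOXA6. Because bulk RNA was sequenced, fewer cells expressing a gene and less RNA per cell cannot be told apart.

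The 4 calls made up 16.7% of the 24 members tested, where 8.85% of all genes tested were called higher and 11.3% lower. With the fold minimum dropped, 5 members (20.8%) were higher, against 15.3% of all genes. In 10 members tested (41.7%) all 3 BCSC libraries lay above all 3 non-BCSC libraries, which held for 24.2% of all genes tested. In 0 members did all 3 lie below, which held for 27.9%. Of the 10, HOXC5 and HOXD4 had at most 5 counts in a non-BCSC library and were tested only because of their BCSC counts. HOXB9, also of the 10 and called, had 4 counts in non-BCSC library 2. Its non-BCSC libraries alone would not have passed the filter either. HOTAIR and HOXA7, with 0 counts in BCSC, had too few counts in non-BCSC to be tested. The log2 fold change (BCSC over non-BCSC) was positive in 17 members and negative in 7, with a median of 0.48 against -0.05 over all genes tested. At an unadjusted p under 0.05 with no fold minimum 8 of the 24 members were higher and 0 lower, against 20.8% and 22.3% of all genes, and 7 of the 8 passed the fold minimum. With DESeq2 4 members were called higher and 0 lower, against 8.73% and 17.2% of all genes it gave an adjusted p. The number called higher was 1 without BCSC library 1 or 2, and 2 without BCSC library 3 or non-BCSC library 3. It was 3 without non-BCSC library 1 or 2, and HOXC10 was called in all 6 of these fits. The share of all genes called in these fits is not given here, so the lower numbers cannot be read as particular to HOX genes.

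**Figure D1:**
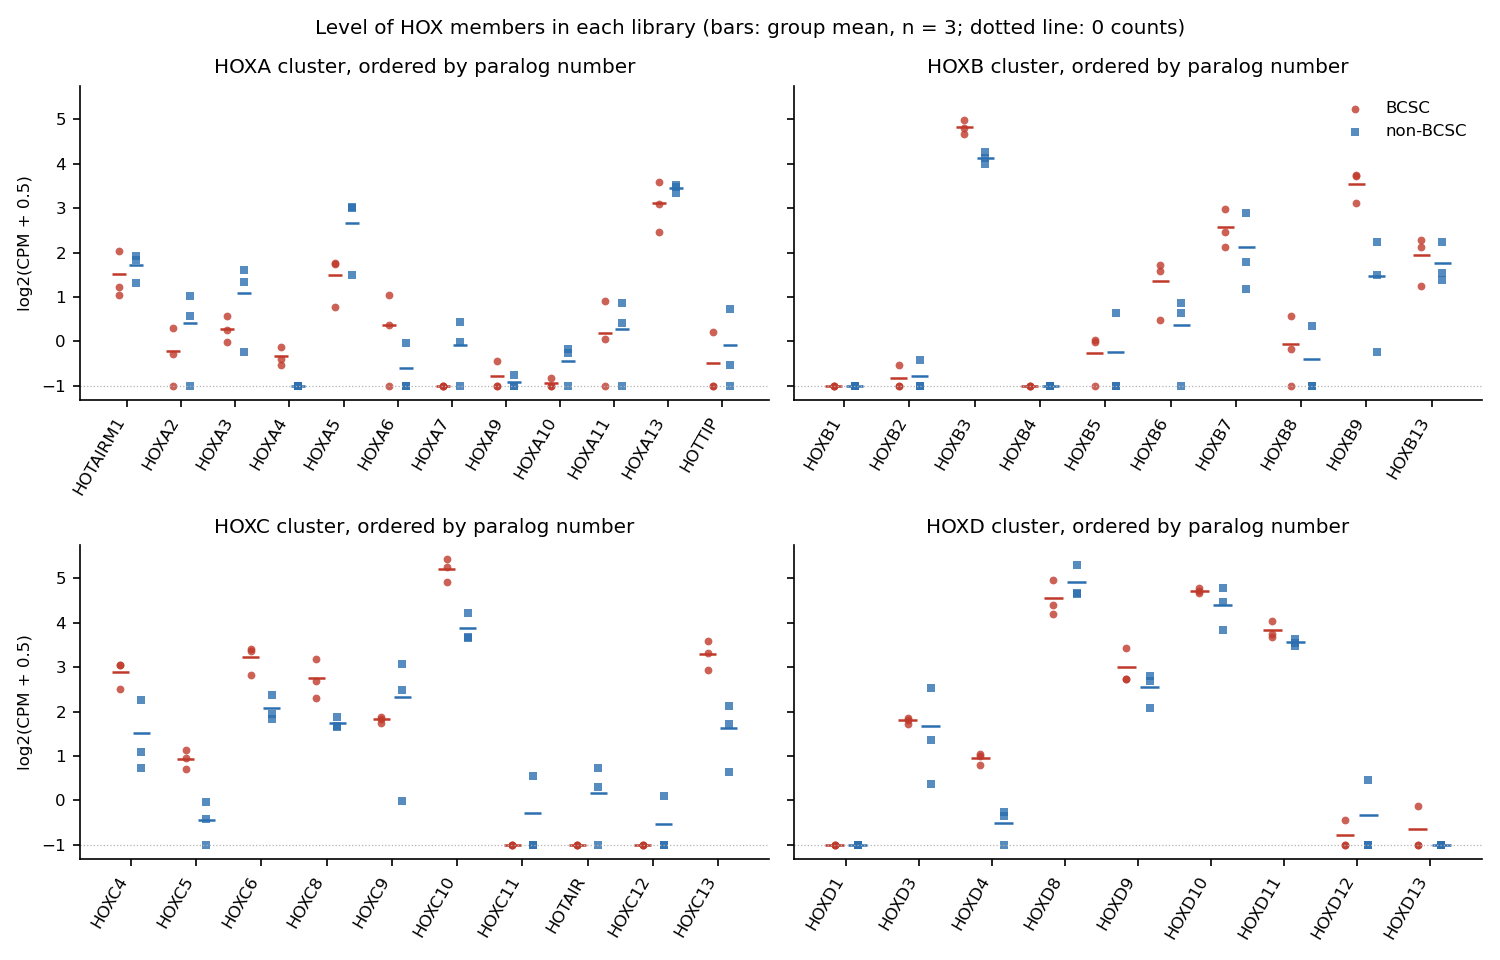
Level of the members shown in each library, as log2(CPM + 0.5), by cluster and paralog number. Points are libraries, short bars are group means (n = 3) and the dotted line marks 0 counts. HOXC10 and HOXB9 lie higher in all 3 BCSC libraries than in any non-BCSC library, while HOXD8 and HOXD10 overlap.

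The HOXC cluster held 3 of the 4 calls. HOXC10, a posterior member (chromosome 12, 54378849 to 54384063, plus strand, GRCh37), had 37.4, 42.5 and 29.9 CPM in the 3 BCSC libraries and 18.2, 12.0 and 12.3 in the 3 non-BCSC libraries. The groups did not overlap, and the lowest BCSC library lay well above the highest non-BCSC library. The log2 fold change was 1.37 (SE 0.25, edgeR test, adjusted p = 0.0046). Counts ran from 494 to 760 in BCSC and from 128 to 220 in non-BCSC, which made HOXC10 the most deeply counted of the 4.

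HOXC13, the last gene at the posterior end of the cluster (chromosome 12, 54332615 to 54340328, plus strand, GRCh37) and known for its part in hair and nail formation, had 11.6, 7.11 and 9.43 CPM in BCSC against 2.81, 3.89 and 1.05 in non-BCSC. All 3 BCSC libraries were higher, and the log2 fold change was 1.85 (SE 0.53, edgeR test, adjusted p = 0.028). The neighbours HOXC12, HOTAIR and HOXC11, which lie between HOXC13 and HOXC10, had 0 counts in all 3 BCSC libraries. In non-BCSC, HOXC12 had counts in library 3 alone (6), as did HOXC11 (10).

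HOXC6, a mid-cluster gene expressed in the developing thorax and mammary gland (chromosome 12, 54384408 to 54424607, plus strand, GRCh37), had 10.05, 9.79 and 6.59 CPM in BCSC against 3.05, 3.36 and 4.70 in non-BCSC. The groups did not overlap, but the gap between BCSC library 3 and non-BCSC library 3 was small. The log2 fold change was 1.25 (SE 0.42, edgeR test, adjusted p = 0.047). The HOXC6 call was lost in each of the 6 fits that left out a library, and 16.1% of its exonic bases are shared with HOXC4, HOXC9 or a readthrough gene on the same strand. HOXC13 kept its call only without non-BCSC library 2 or 3, and lost it without BCSC library 1, 2 or 3 or non-BCSC library 1.

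In HOXC4, HOXC5 and HOXC8 the BCSC libraries also lay above all non-BCSC libraries without passing the test. HOXC4, at the anterior end of the cluster, ran from 5.20 to 7.78 CPM in BCSC and from 1.15 to 4.29 in non-BCSC. Its log2 fold change was 1.55 (SE 0.60, edgeR test, adjusted p = 0.076), and 17.5% of its exonic bases are shared with HOXC6 or a readthrough gene on the same strand. HOXC8 ran from 4.44 to 8.53 and from 2.64 to 3.18 CPM, with 1.15 (SE 0.49, edgeR test, adjusted p = 0.0998). HOXC5 had 22 to 28 counts in BCSC and 0 to 5 in non-BCSC, with 2.52 (SE 1.23, edgeR test, adjusted p = 0.15), and 67.3% of its exonic bases are shared with readthrough genes. HOXC9, the tested member of the cluster with a negative value, ran from 2.87 to 3.21 CPM in BCSC and from 0.495 to 7.96 in non-BCSC, which enclosed all 3 BCSC libraries.

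**Figure D2:**
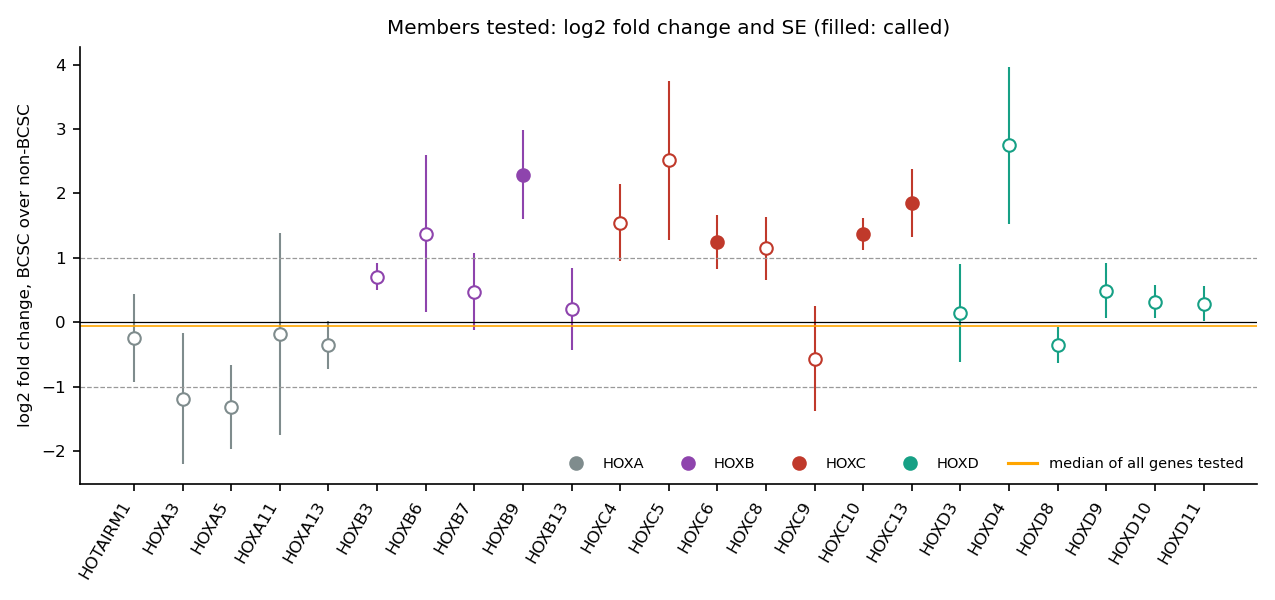
Log2 fold change (BCSC over non-BCSC) with its SE for members tested, by cluster and position, with called members filled. Dashed lines mark the fold minimum, and the orange line marks the median of all genes tested (-0.05). In the HOXC cluster 6 of 7 members lie above 0, and HOXB9, HOXC6, HOXC10 and HOXC13 are filled.

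In the HOXB cluster, HOXB9 was called and HOXB3 was the most abundant member. HOXB9, whose product takes part with its paralogs in mammary gland development (chromosome 17, 46698518 to 46703720, minus strand, GRCh37), had 12.7, 12.9 and 8.16 CPM in BCSC against 4.21, 0.353 and 2.30 in non-BCSC. The groups did not overlap, although non-BCSC library 2 held only 4 counts. The log2 fold change was 2.29 (SE 0.69, edgeR test, adjusted p = 0.034), the largest of the 4 calls, and it lost its call without BCSC library 1 or 2 or non-BCSC library 3. HOXB9 has 1 annotated transcript and shares none of its exonic bases with another gene.

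HOXB3 (chromosome 17, 46626232 to 46682274, minus strand, GRCh37), an anterior gene that helps pattern the hindbrain, had 31.3, 25.1 and 27.3 CPM in BCSC against 15.4, 18.8 and 17.0 in non-BCSC. The groups did not overlap, and the log2 fold change was 0.71 (SE 0.21, edgeR test, adjusted p = 0.032). HOXB4, which lies within the HOXB3 gene body, had 0 counts in all 6 libraries. HOXB6, HOXB7 and HOXB13, a gene of the prostate and hindgut, were tested and overlapped between the groups, with log2 fold changes of 1.38, 0.48 and 0.20. HOXB2, HOXB5 and HOXB8 reached at most 15 counts in a library and were not tested.

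The HOXD cluster was abundant in both groups and held 0 calls. HOXD10, a posterior gene active in limb and spinal cord (chromosome 2, 176973518 to 176984665, plus strand, GRCh37), had 25.1, 25.6 and 27.2 CPM in BCSC against 21.5, 27.03 and 13.7 in non-BCSC. The groups overlapped, since non-BCSC library 2 lay above BCSC libraries 1 and 2, and the log2 fold change was 0.32 (SE 0.26, edgeR test, adjusted p = 0.38). HOXD8 ran from 17.9 to 30.8 CPM in BCSC and from 24.7 to 38.8 in non-BCSC, with -0.35 (SE 0.28, edgeR test, adjusted p = 0.36). HOXD11 ran from 12.4 to 16.1 and from 10.6 to 12.0 CPM, and HOXD9 from 6.11 to 10.3 and from 3.71 to 6.43 CPM. Their edgeR adjusted p were 0.44 and 0.41, and only for HOXD11 did the groups not overlap. HOXD10 and HOXD11 share 18.2% and 21.4% of their exonic bases with each other on the same strand, so their counts may not be fully separated.

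HOXD4, an anterior gene of the cluster, was sparse but did not overlap between the groups. It was counted 25, 23 and 26 times in BCSC against 4, 0 and 3 times in non-BCSC, with a log2 fold change of 2.75 (SE 1.22, edgeR test, adjusted p = 0.11). HOXD3 overlapped between the groups, with 0.14. The posterior end was nearly empty, with counts of HOXD13 in BCSC library 3 alone (7) and of HOXD12 in BCSC library 3 (4) and non-BCSC library 2 (10).

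The HOXA cluster held 0 calls, and 4 of its 5 coding genes tested had negative values. HOXA5, a gene with a part in lung and mammary development, had 2.91, 2.87 and 1.21 CPM in BCSC against 7.59, 7.51 and 2.30 in non-BCSC. Non-BCSC library 3 fell among the BCSC libraries, and the log2 fold change was -1.31 (SE 0.65, edgeR test, adjusted p = 0.15). HOXA13, the posterior end of the cluster, ran from 5.02 to 11.5 CPM in BCSC and from 9.63 to 11.03 in non-BCSC, with -0.35 (SE 0.37). HOXA3 ran from 0.484 to 0.979 and from 0.353 to 2.56 CPM, with -1.19 (SE 1.02), while HOXA11 was at 0 in 1 library of each group.

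Between HOXA5 and HOXA11 the cluster was near silent. HOXA7, HOXA9 and HOXA10 reached at most 9 counts in a library, and HOXA7 had 0 in all 3 BCSC libraries against 6, 0 and 9 in non-BCSC. HOXA4 was counted 4, 4 and 7 times in BCSC and 0 times in non-BCSC, which is close to the floor of 3 counts. HOXA2 and HOXA6 reached at most 16 and 26 counts, with at least 1 library at 0 in each group.

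The 3 lncRNAs were sparse, and none of them was called. HOTAIRM1, a myeloid-linked lncRNA at the anterior end of its cluster (chromosome 7, 27135266 to 27139884, plus strand, GRCh37), was the only lncRNA of the 3 that could be tested and had the highest level per kb of the HOXA cluster. It had 1.58, 1.83 and 3.63 CPM in BCSC against 1.98, 3.27 and 3.07 in non-BCSC. The groups overlapped throughout, with a log2 fold change of -0.24 (SE 0.69, edgeR test, adjusted p = 0.81).

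HOTAIR (chromosome 12, 54356092 to 54368740, minus strand, GRCh37), a lncRNA studied for its ties to Polycomb and to breast cancer spread, had 0 counts in all 3 BCSC libraries and 9, 0 and 12 in non-BCSC. The groups meet at 0, since non-BCSC library 2 had none. HOTTIP (chromosome 7, 27238194 to 27246878, plus strand, GRCh37), which is linked to Trithorax activity at the posterior HOXA genes, was counted 0, 10 and 0 times in BCSC against 14, 0 and 2 times in non-BCSC. Its start lies next to that of HOXA13, in the overlapping windows printed above, yet HOXA13 had 77 to 190 counts in the same 6 libraries. Neither lncRNA was detectable at this depth in every library of a group. Per kb in non-BCSC, HOTAIR stood at 0.258 times the olfactory receptor mean and HOTTIP at 0.194 times. Of the 391 olfactory receptor genes, 307 stood at or above HOTAIR there and 332 at or above HOTTIP. In BCSC, HOTTIP stood at 0.726 times the olfactory mean.

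Summed over coding genes, the HOXC cluster stood at 72.5 ± 6.91 CPM in BCSC against 30.9 ± 1.93 in non-BCSC, and the HOXB cluster at 50.9 ± 8.19 and 27.7 ± 1.52 (SD, n = 3 in each). In both clusters all 3 BCSC libraries lay above all 3 non-BCSC libraries. The HOXA cluster stood at 16.9 ± 1.22 and 22.8 ± 3.53 CPM, with all 3 BCSC libraries below, and the HOXD cluster at 75.1 ± 9.88 and 70.1 ± 10.3, where the groups overlapped. The median log2 fold change of the coding genes tested was 1.37 in HOXC (7 genes), 0.71 in HOXB (5 genes), 0.31 in HOXD (6 genes) and -0.35 in HOXA (5 genes). After the correction for GC content described further on, these medians were 1.02, 0.23, -0.27 and -0.61, where the median of all genes was 0.28.

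By position, the median was 0.61 over the 6 genes tested of paralog groups 1 to 4, 1.15 over the 7 of groups 5 to 8 and 0.31 over the 10 of groups 9 to 13, and these held 0, 1 and 3 of the calls. After the same correction the medians were 0.48, 0.35 and -0.19. The 4 called genes were of groups 6, 9, 10 and 13, and genes of the same groups in other clusters (HOXA6, HOXA9, HOXA10, HOXA13, HOXB6, HOXB13, HOXC9, HOXD9, HOXD10 and HOXD13) were not called, with HOXA6, HOXA9, HOXA10 and HOXD13 too sparse to test. In each library, the 5 members HOXC10, HOXB3, HOXD10, HOXD8 and HOXD11 held from 53.8% to 66.7% of all member CPM.

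Levels of different genes were compared per kb, with the counts of each transcript divided by its own length. In BCSC the highest members were HOXC10 (23.99 CPM per kb), HOXD10 (18.3), HOXD8 (16.6), HOXD11 (9.57) and HOXB3 (8.55). In non-BCSC the order by group mean was HOXD10 (17.0 CPM per kb), HOXD8 (15.6), HOXC10 (8.74), HOXD11 (7.74), HOXC9 (4.85) and HOXB3 (4.17), so that HOXC10 stood first in BCSC and below HOXD10 and HOXD8 in non-BCSC.

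Set against the olfactory receptor genes of the same group, 29 members lay above their mean per kb in BCSC and 16 in non-BCSC. Above every single olfactory receptor gene lay 12 members in BCSC and 0 in non-BCSC. The olfactory mean itself was 8.84 times higher in non-BCSC than in BCSC, so these numbers do not compare HOX levels between the groups. In non-BCSC, HOXC10 was 8.63 times the olfactory mean per kb and HOXB3 4.12 times, but HOXB9 (0.874 times), HOXC13 (1.08 times) and HOXC6 (1.54 times) were nearer to it. Of the 391 olfactory receptor genes, 135 stood at or above HOXB9 in non-BCSC, 105 at or above HOXC13 and 55 at or above HOXC6. HOXD10 and HOXD8, at 16.8 and 15.4 times, were far above it.

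**Figure D3:**
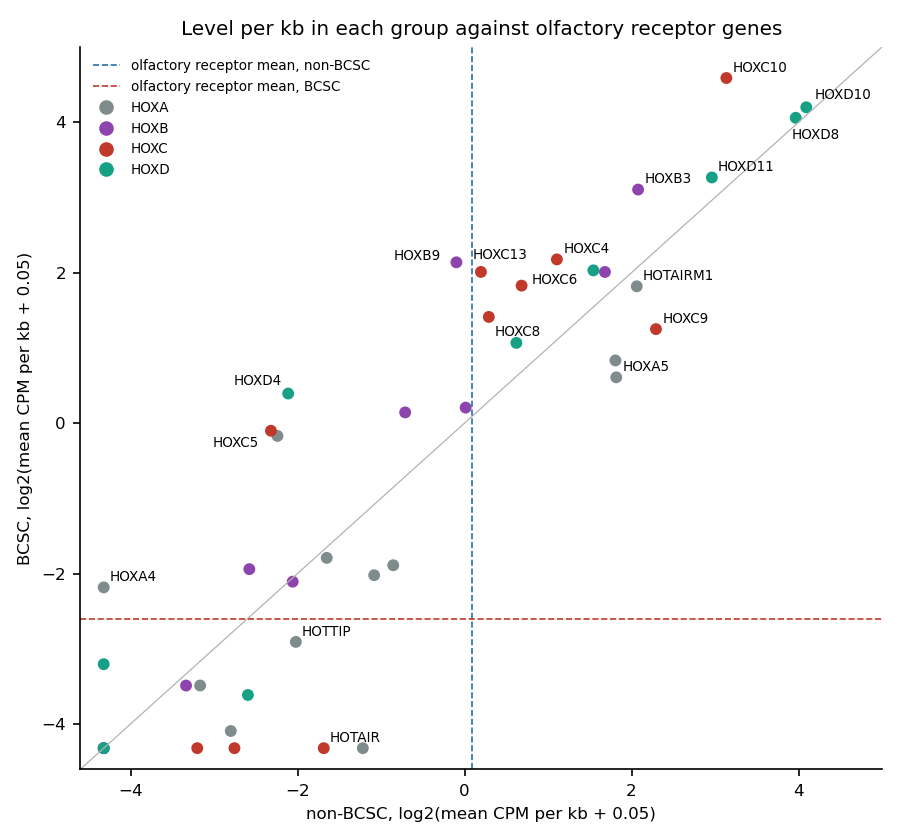
Mean level per kb of members in non-BCSC (x axis) and BCSC (y axis), as log2(CPM per kb + 0.05), coloured by cluster. The grey diagonal marks equal levels and the dashed lines mark the mean of 391 olfactory receptor genes in each group (1.01 and 0.114 CPM per kb). HOXC10, HOXB9 and HOXC13 lie above the diagonal, and HOXB9 lies left of the non-BCSC line.

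The size of the BCSC difference depended on how base composition was handled. Over the genes tested, log2 fold change rose with GC content (Spearman's rho 0.55 over 20442 genes, which are not independent replicates and share the 6 libraries), and the members tested had a median GC content of 54.3% against 46.2% for all genes. A correction for GC content and length in each library moved the median of all genes by 0.33 to 0.28 and brought the members' median to 0.20, below it. HOXB9 (1.86, edgeR adjusted p = 0.028) and HOXC8 (1.40, edgeR adjusted p = 0.035) were then called. HOXC10 (0.93, edgeR adjusted p = 0.010) fell under the fold minimum, and HOXC13 (1.02, edgeR adjusted p = 0.13) and HOXC6 (0.76, edgeR adjusted p = 0.16) did not pass. The share of all genes called after this correction is not given here.

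After the olfactory receptor level was subtracted from every gene as a background, the members' median was 0.91. The 4 members called were HOXC10, HOXC6, HOXC5 and HOXD4. The share of all genes called after the subtraction is not given here. The level subtracted was 1.03 to 3.19 counts per kb in BCSC but 8.33 to 15.3 in non-BCSC, and results below 0 were set to 0. HOXC5 and HOXD4, with at most 5 counts in a non-BCSC library, were thereby put at 0 in non-BCSC. Their values of 7.08 and 7.16, and their calls, were produced by the subtraction. HOXB9, HOXC13, HOXC4 and HOXC8 were also put at 0 in part of the non-BCSC libraries. The HOXB9 value was then 3.54 (edgeR adjusted p = 0.083) and that of HOXC13 was 2.98 (edgeR adjusted p = 0.063). HOXC10 (1.23, edgeR adjusted p = 0.0097) and HOXC6 (1.65, edgeR adjusted p = 0.04997) were called with and without the subtraction. It took more from non-BCSC than from BCSC, so a call kept under it is no independent support. HOXB9 was the only member called with and without the GC correction. HOXB3 turned from 0.71 to -0.10 under the GC correction.

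**Figure D4:**
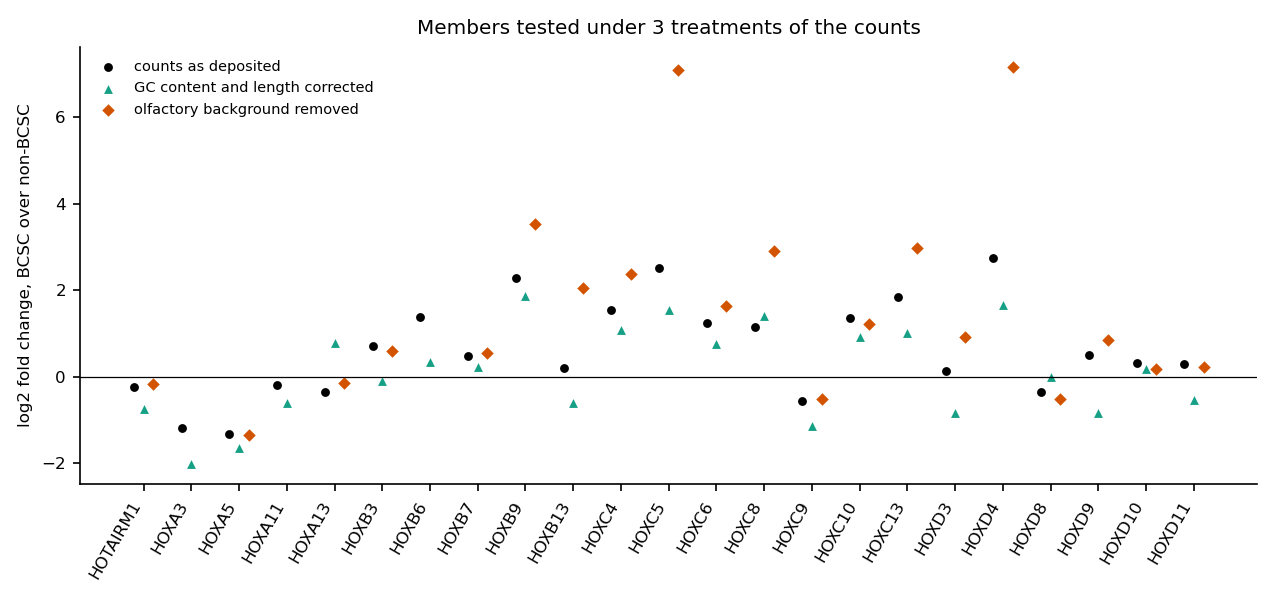
Log2 fold change of members tested from the counts as deposited (circles), after correction for GC content and length (triangles) and after subtraction of the olfactory receptor background (diamonds). A missing diamond marks a member left with too few counts. HOXB9, HOXC4, HOXC5, HOXC8, HOXC13 and HOXD4 lie above 1 from the deposited counts and after the GC correction. The subtraction took more from non-BCSC than from BCSC, so the diamonds do not show whether a value holds. HOXB3, HOXB13, HOXD3, HOXD9 and HOXD11 lie above 0 from the deposited counts and below it after the GC correction.

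The deposited file counts transcripts, and 126 belong to the members, of which 74 had a count and 31 were tested. None of the 31 was called in edgeR (4 higher and 1 lower at an unadjusted p under 0.05, smallest adjusted p = 0.18), where 362 of 46176 transcripts (0.784%) were called. The transcript behind the HOXC10 difference was HOXC10-201, with 698, 432 and 435 counts in the BCSC libraries against 197, 121 and 116, and HOXC10-203 added 210 counts in BCSC library 2 and 0 to 55 in the others. HOXB3 was carried by HOXB3-205, with 375 to 560 counts in BCSC and 165 to 213 in non-BCSC.

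In HOXC4 the counts of the groups were assigned mostly to different annotated transcripts, with no call. HOXC4-202, which starts at 54447619 on chromosome 12 (GRCh37), was counted 153, 106 and 86 times in BCSC against 0, 0 and 13 times in non-BCSC. HOXC4-201 was counted 0 times in BCSC against 37, 13 and 0 times in non-BCSC, and its start at 54410715 lies 43 bases from the annotated start on which the HOXC4 window printed above is built. Only HOXC4-202 could be tested, with a log2 fold change of 4.08 (SE 1.77, edgeR test, adjusted p = 0.32).

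HOXD8 counts also divided differently among annotated transcripts, with no call. HOXD8-201, which begins at the annotated start on which the HOXD8 window printed above is built, was counted 113, 32 and 74 times in BCSC against 303, 79 and 258 times in non-BCSC (log2 fold change -2.13, SE 0.73, edgeR test, adjusted p = 0.22). HOXD8-203, which starts at 176995085 on chromosome 2 (GRCh37), had 250, 286 and 436 counts in BCSC but 0, 360 and 0 in non-BCSC. In HOXD10 the transcripts also differed in direction, with no call. HOXD10-201 had 417, 244 and 296 counts in BCSC against 131, 154 and 62 in non-BCSC (log2 fold change 0.92, SE 0.50). HOXD10-203 had 86, 39 and 63 against 66, 152 and 34 (-0.98, SE 0.70), and HOXD10-202 had a value of 0.46 (SE 1.74). The step that shared reads among transcripts is not given in the sources used here, and its part in these values was not tested.

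**Figure D5:**
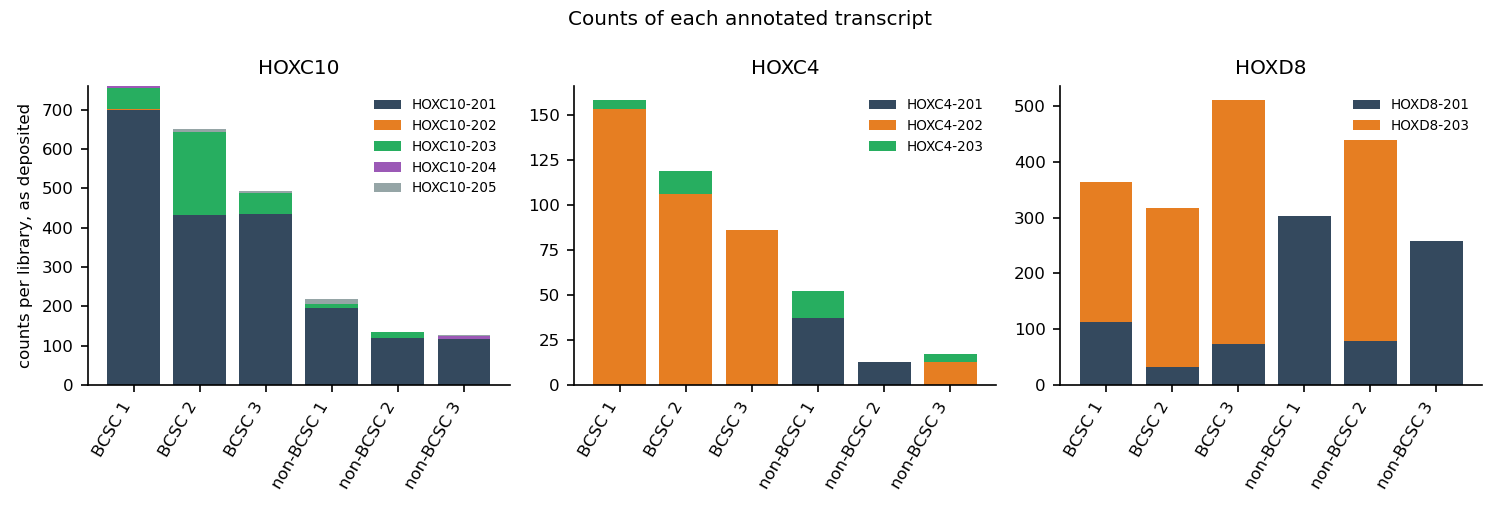
Counts of each annotated transcript of HOXC10, HOXC4 and HOXD8 in each library, as stacked bars starting at 0. HOXC4-202 makes up most of HOXC4 in BCSC and HOXC4-201 in non-BCSC libraries 1 and 2, and HOXD8-203 has 0 counts in non-BCSC libraries 1 and 3.

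Most antisense and divergent lncRNAs of the clusters were too sparse to test. Of 16 listed, 15 were on file, 4 had 0 counts in all libraries and 2 were tested, with 0 called in edgeR, 0 at an unadjusted p under 0.05 and 0 in DESeq2. HAGLR, from the HOXD cluster, stood at 8.28 ± 1.24 CPM in BCSC and 6.93 ± 4.24 in non-BCSC, with a log2 fold change of 0.26 (SE 0.47). HOXD-AS2, which overlaps HOXD8 on the other strand, stood at 2.13 ± 0.686 and 0.884 ± 0.645 CPM, with 1.25 (SE 0.92, edgeR test, adjusted p = 0.33). Whether strand was used in counting is not given, so reads of HOXD8 and HOXD-AS2 may not be separated.

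None of the listed TALE genes, the PBX, MEIS and PKNOX cofactors with TGIF1 and TGIF2, passed both thresholds. Of 11 listed, 9 were tested and 0 were called in edgeR (4 higher and 1 lower at an unadjusted p under 0.05, 0 higher and 1 lower in DESeq2), with a median of 0.40. TGIF1, a repressor of the same homeodomain class and among the most abundant of the list, stood at 88.4 ± 6.31 CPM in BCSC and 49.4 ± 2.70 in non-BCSC (log2 fold change 0.84, SE 0.13, edgeR test, adjusted p = 0.0024). Its groups did not overlap, and it lay below the fold minimum. Without that minimum 3 of the 9 TALE genes, TGIF1 among them, were higher and 1 lower, where 15.3% of all genes were higher and 14.6% lower.

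Of 30 listed regulators of HOX loci, 27 were tested, and 7 were called higher and 0 lower (1 lower at an unadjusted p under 0.05, 0 lower in DESeq2), and the calls made up 25.9% of those tested, where 8.85% of all genes were called higher. The 4 of smallest p were PHC2, a Polycomb subunit (log2 fold change 1.84, SE 0.28, edgeR test, adjusted p = 0.0022), KMT2B, a Trithorax H3K4 methyltransferase (1.95, SE 0.31, adjusted p = 0.0026), WDR5, a shared subunit of the H3K4 methyltransferase complexes (1.13, SE 0.19, adjusted p = 0.0033), and CBX2, a Polycomb reader (1.52, SE 0.31, adjusted p = 0.0080). The list's median was 0.82, and members from both the activating and the silencing complexes were among the calls. After the GC correction 8 were called higher and 1 lower, and PHC2 (0.79), KMT2B (0.64), WDR5 (-0.19) and CBX2 (0.11) were not among the calls. These 8 cannot be set against 8.85%, which is the share of all genes before the correction.

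Of 21 listed genes that flank the clusters, 15 were tested and 1 was called higher (6.67% of those tested, against 8.85% of all genes), ATP5MC2, a subunit of the mitochondrial ATP synthase beyond the HOXC13 end of the HOXC cluster (36.9 ± 2.78 CPM in BCSC and 16.4 ± 3.80 in non-BCSC, log2 fold change 1.17, SE 0.22, edgeR test, adjusted p = 0.0058). The number called lower was 0, against 3 at an unadjusted p under 0.05 and 1 in DESeq2, and the list's median was 0.13. After the GC correction 5 were called higher and the median was 0.88, against 0.28 over all genes. The share of all genes called after the correction is not given here, and 8.85% is the share before it.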

How the data were processed

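Per the labels, cDNA was made from total RNA of PTX-resistant MDA-MB-231 cells by random priming, with dUTP in the second strand, which was then degraded. The authors deposited a table of transcripts whose values are whole-number estimated counts without normalization, for 3 BCSC and 3 non-BCSC libraries. The study's methods name HISAT2 and hg19, while the submitters' processing notes name HISAT2, featureCounts, DESeq2 and hg38, so the build of the alignment is uncertain. The file holds no coordinates, and the annotation release, the strand setting and the step that shared reads among transcripts are not given in the sources used here.

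Of 252618 transcripts, 249787 (98.9%) matched GENCODE on GRCh37 by identifier. No use was made of 4 transcripts named by an assembler, and the 2827 unmatched transcripts held 0.229% to 0.341% of the counts of a library. Counts were summed per gene, and gene positions are GRCh37. Levels are CPM on TMM library sizes, and levels per kb divide each transcript by its length.

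Genes were tested in edgeR 4.0.16 (R 4.3.3) by the quasi-likelihood test (robust, two-sided) after filterByExpr and TMM scaling, without covariates and with Benjamini-Hochberg adjustment over all 20442 genes tested. The thresholds (adjusted p below 0.05, log2 fold change beyond 1) follow the study's general RNA-seq methods. Its lncRNA comparison gives a P and says nothing of adjustment, so an unadjusted p was also tried. The common biological coefficient of variation was 0.453 for genes and 1.02 for transcripts. The test was checked on simulated data.

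The members, the gene lists and the marker lists were chosen with earlier results of these data known. Values are given for every library for members called, the member of highest CPM per kb in each cluster and the 3 lncRNAs, and other members are given by range. From each list the members called (at most 4, by smallest p) are named, or with none called the 2 of highest mean CPM. The values given for other members, the transcripts and promoter windows shown, and the single markers were chosen after values were seen.

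Alternatives were DESeq2 1.42.0, RLE size factors, dropping the filter, requiring 10 counts in each library, no minimum fold, an unadjusted p, a replicate block, each replicate left out, transcripts in place of genes, a loess correction for GC content and length (span 0.3), subtraction of a background per kb taken from 391 olfactory receptor genes, and thinning to the smallest library. Promoter windows and their motif searches used RefSeq on GRCh38.p14, and 1 exact match placed each window on GRCh37. Some items, among them genes of these lists, are not reported here and are left out of the figures, and counts and medians include them.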

Additional observations from a re-analysis of the deposited data

How the results depend on the processing

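The number of HOX members called higher (4) was 2 with the correction for GC content and length, 7 with an unadjusted p and the fold minimum, 0 with transcripts in place of genes and 1 to 3 with a replicate left out. It was 3 with RLE size factors, no filter, at least 10 counts in every library or thinning, and HOXC6 was not called in any of these (with at least 10 counts HOXB9 was not tested and HOXC4 was called), while it was 4 with the background removed and with DESeq2. The number called lower (0) was 1, HOXA5, with at least 10 counts in every library. Except for DESeq2 and transcripts, the shares of all genes called under these settings are not given here. The members' median log2 fold change was 0.20 with the GC correction and 0.91 with the background removed. Direction turned with the GC correction for HOXA13 (0.77), HOXB3 (-0.10), HOXB13 (-0.61), HOXD3 (-0.83), HOXD9 (-0.84) and HOXD11 (-0.54), and with a replicate left out for HOXA11 (-1.35 to 0.64, positive without BCSC 3 or non-BCSC 2), HOXB13 (-0.036 to 0.62, negative without BCSC 1), HOXC9 (-1.05 to 0.14, positive without non-BCSC 3) and HOXD3 (-0.25 to 1.08, negative without non-BCSC 2). Listed TALE genes called lower (0) were 1 with RLE size factors, at least 10 counts, the background removed or DESeq2. Those called higher (0) were 1 with no filter or the GC correction. Both numbers ran from 0 to 1 with a replicate left out. HOX regulators called lower (0) were 1 with no filter or the GC correction and 0 to 1 with a replicate left out. Flanking genes called lower (0) were 1 with RLE size factors, at least 10 counts, the background removed or DESeq2 and 0 to 1 with a replicate left out, and those called higher (1) were 5 with the GC correction. The cause was not tested. For single members, 282 of the other values kept direction and call, 23 lost a call and 7 gained one.

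The groups share replicate numbers. The correlations of same-numbered deviations from the group means were 0.179, 0.0143 and 0.219. Over all pairs of libraries of different groups they ran from -0.200 to 0.219, the highest being the same-numbered pair of replicate 3. These values do not settle whether the numbers pair the libraries, which were tested as unpaired. With a replicate block 4 members were called higher and 0 lower, as without it, with HOXC4 (log2 fold change 1.73) in place of HOXC6 (1.25), and 2 flanking genes were called higher. The 18 untested members reached at most 26 counts in a library.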
